A study of Mus musculus with 12 samples.

Results

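The genes examined here serve one pathway, the display of peptides by major histocompatibility complex (MHC) class I molecules. They were fixed by name: B2m, Tap1, Tap2, Tapbp, Psmb8, Psmb9, Psmb10, Erap1 and Nlrc5, 9 genes in all. Every probe set assigned to exactly 1 of these symbols was taken, which gave 11 of the 45141 probe sets on the array. The 11 probe sets belong to 6 genes: 2 to Tapbp, 2 to Psmb8, 3 to Psmb9, 1 to Psmb10, 2 to Erap1 and 1 to Nlrc5. B2m, Tap1 and Tap2 were not analysed here. The study set liver RNA of male mice without Pml against that of wild-type mice after a diet rich or poor in fat. Pml encodes the protein that builds the nuclear bodies named after it.

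The 4 groups were Pml knockout (KO) mice on a high-fat diet, wild-type (WT) mice on the high-fat diet, KO mice on a low-fat diet and WT mice on the low-fat diet. The high-fat diet held 60% of its calories as fat and the low-fat diet 10%, and both were fed for 20 weeks. All mice were fasted for 8 h before the liver was taken. Each group gave 3 arrays, each of 1 liver extract, out of 8 mice per group. The labels give no strain, age or way in which Pml was removed, and they do not state that each extract came from a different mouse. All p-values reported here thus rest on the differences among extracts, which may be technical, and the number of arrays limits the precision.

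MHC class I molecules show short peptides from inside the cell to cytotoxic T cells. The proteasome cuts proteins into peptides, the TAP transporter moves the peptides into the endoplasmic reticulum, and tapasin helps load them onto the class I heavy chain and beta-2 microglobulin. Interferon-gamma makes cells replace the catalytic subunits of the standard proteasome with those of the immunoproteasome, and the regulator NLRC5 raises transcription of class I genes. In liver the resident macrophages, the sinusoidal endothelium and lymphocytes carry much of this machinery, and hepatocytes carry less of it until interferon reaches them.

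Psmb9, Tap1, Psmb8 and Tap2 lie side by side in the mouse MHC. In the RefSeq annotation of GRCm38.p6, Psmb9 is at chr17:34182030-34187330, Tap1 at chr17:34187556-34197225, Psmb8 at chr17:34198195-34201454 and Tap2 at chr17:34204479-34216321. Psmb9 lies on the minus strand and Tap1 on the plus strand, and 225 bases separate their starts. Tapbp lies elsewhere on the same chromosome (chr17:33919478-33929290), Psmb10 at chr8:105935728-105938392, Nlrc5 at chr8:94434335-94527272, Erap1 at chr13:74639573-74693205 and B2m at chr2:122147687-122153082.

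RefSeq promoter windows were at hand for 7 of the 9 genes. Each runs from 250 bases before to 50 bases after an annotated start. The windows of Psmb9, the only gene with a change past the test below, and of its neighbour Psmb8 are shown 5′ to 3′ on the strand of the gene. Capitals mark the matches to 3 searched motifs on either strand, which were the interferon-stimulated response element (GAAA, any 2 bases, GAAA), the gamma-activated site (TTCNNNGAA) and the CCAAT box (CCAAT, or its complement).
Psmb9 promoter, chr17:34187281-34187580, minus strand: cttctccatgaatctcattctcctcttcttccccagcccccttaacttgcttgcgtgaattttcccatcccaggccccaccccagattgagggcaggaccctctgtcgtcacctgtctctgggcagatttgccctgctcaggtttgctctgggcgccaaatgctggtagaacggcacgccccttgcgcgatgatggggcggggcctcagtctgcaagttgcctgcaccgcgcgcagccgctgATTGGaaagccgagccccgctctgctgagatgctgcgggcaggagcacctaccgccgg
Psmb8 promoter, chr17:34197945-34198244, plus strand: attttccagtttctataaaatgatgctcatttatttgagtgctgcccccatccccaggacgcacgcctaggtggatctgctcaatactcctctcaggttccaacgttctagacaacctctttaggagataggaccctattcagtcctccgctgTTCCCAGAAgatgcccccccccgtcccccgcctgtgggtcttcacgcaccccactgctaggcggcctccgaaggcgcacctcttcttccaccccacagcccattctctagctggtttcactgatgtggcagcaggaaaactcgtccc
The Psmb9 window held 1 CCAAT box, read on the opposite strand, from -8 to -4 relative to the start, and it shares 275 bases with the Tap1 window. The Psmb8 window held 1 gamma-activated site from -97 to -89. Of the other windows, B2m held a response element from -139 to -130 and a CCAAT box, Erap1 a response element from -4 to 6, Tap1 1 CCAAT box, Tapbp 2 CCAAT boxes and Psmb10 no match. The CCAAT boxes of Tap1 and Psmb9 are the same bases, in the stretch that their windows share. Among all 32851 promoter windows, 3.44% held the response element, 8.3% the gamma-activated site and 37.4% a CCAAT box. A match is a stretch of letters and not a measured binding site.

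Values are log2 signals, so a difference of 1 is a doubling, and levels of different probe sets cannot be set against each other. Differences were tested with limma over all 12 arrays, and a probe set passed at an adjusted p of 0.05 over the 17339 probe sets tested. Of the 11 probe sets, 9 were bright enough to be tested. The arrays were alike, with Pearson's r of 0.986 to 0.995 across probe sets. Pml itself was a check of the genotype labels, but not of the diet labels. It had log2 signals of 3.43, 3.04 and 3.82 in KO livers, against 4.97, 5.35 and 5.38 in WT livers, on the high-fat diet. On the low-fat diet it had 3.70, 3.59 and 3.59 in KO livers, against 5.40, 4.92 and 5.07 in WT livers. KO and WT livers did not overlap on either diet. The KO means were 3.43 on the high-fat and 3.63 on the low-fat diet, below 3.82, the lowest mean of any probe set tested. At signals this dim, fold sizes do not show how much Pml RNA was left. Pml was 3.49-fold lower in KO livers on the high-fat diet (limma, adjusted p = 0.00534) and 2.84-fold lower on the low-fat diet (limma, adjusted p = 0.0395). The first call was lost without WT high-fat replicate 2 (limma, adjusted p = 0.0625) or 3 (0.0614). Of the 12 refits that each left out 1 array, those without KO high-fat replicate 2 or 3 or WT high-fat replicate 1 kept the second call. The others lost it, with limma adjusted p-values of up to 0.253, without WT low-fat replicate 3. The first call was also lost with the 2 groups alone (limma, adjusted p = 0.0571). The second was lost with the 2 groups alone (0.0539), over all probe sets that are no controls (0.0560), without a variance trend (0.0625), under the replicate block (0.0880) and with array weights (0.0987). Without both arrays named in the next paragraph, Pml had a limma adjusted p of 0.00685 on the high-fat and 0.118 on the low-fat diet. Another Pml probe set was too dim to test. Its KO minus WT difference was -0.22 on the high-fat and -0.39 on the low-fat diet, without overlap on either.

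KO low-fat replicate 2 and KO high-fat replicate 3 stood apart from the other livers in markers of macrophages and Kupffer cells. The 12 macrophage and Kupffer cell markers had a mean log2 level of 4.83 in KO low-fat replicate 2 and 5.38 in KO high-fat replicate 3. In the other 4 KO livers it was 6.76 and 6.34 on the high-fat diet and 6.57 and 6.14 on the low-fat diet, and in WT livers it was 6.25 to 6.49 on the high-fat diet and 5.90 to 6.15 on the low-fat diet. Calls that rest on these arrays, and many of the medians, are also given without both. WT low-fat replicate 3 stood apart in another way, with the standard proteasome genes low, and its values stand beside those genes. Most T cell and cytotoxic cell markers were too dim to test: 3 of 9 T cell markers and 1 of 10 natural killer and cytotoxic markers passed the filter. The hepatocyte markers were bright in every array, with mean log2 levels of 12.34 to 12.49.

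Among the 9 tested probe sets, only Psmb9 changed past the threshold, and only with diet in KO livers. Psmb9 encodes beta1i (LMP2), the immunoproteasome subunit that takes the place of beta1. Its probe set 1450696_PM_at had log2 signals of 7.87, 7.64 and 7.38 in KO high-fat livers and 7.43, 7.40 and 7.51 in WT high-fat livers. It had 6.76, 6.27 and 7.21 in KO low-fat livers and 7.13, 7.20 and 7.10 in WT low-fat livers. All KO high-fat livers lay above all KO low-fat livers, and KO low-fat replicate 2 was the lowest of the 12. High-fat exceeded low-fat KO livers 1.84-fold (log2 0.88, SE 0.190; limma, adjusted p = 0.0365). In WT livers the diets were also apart, with a log2 difference of 0.30 (SE 0.190; limma, adjusted p = 0.732).

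The Psmb9 call in KO livers sat close to the threshold. Of 12 refits that each left out 1 array, 4 kept it: those without KO high-fat replicate 3 (limma, adjusted p = 0.0484), KO low-fat replicate 3 (0.00528), WT low-fat replicate 2 (0.0421) and WT low-fat replicate 3 (0.0450). The adjusted p was 0.103 without KO high-fat replicate 1, 0.126 without KO high-fat replicate 2, 0.107 without KO low-fat replicate 1 and 0.0791 without KO low-fat replicate 2. It was 0.0524, 0.0596 and 0.0537 without WT high-fat replicates 1, 2 and 3, and 0.0530 without WT low-fat replicate 1. The log2 difference stayed between 0.64 and 1.12. Without both arrays low in macrophage markers it was 0.77 (limma, adjusted p = 0.0650). With the replicate number as a block the adjusted p was 0.0510, and with the 2 groups alone 0.157.

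A second probe set assigned to Psmb9, 1416016_PM_at, gave values of the same order between groups. It had log2 signals of 6.98, 6.68 and 6.84 in KO high-fat livers and 6.41, 6.50 and 6.64 in WT high-fat livers. It had 5.86, 5.92 and 6.65 in KO low-fat livers and 6.28, 6.41 and 6.24 in WT low-fat livers. KO high-fat livers lay above every other liver of the study, by a small margin over KO low-fat replicate 3 and WT high-fat replicate 3. The diet difference in KO livers was 0.69 on the log2 scale (SE 0.180; limma, adjusted p = 0.0743). This probe set cites the same expressed sequence tag as the dim probe set 1448177_PM_at. Which transcript the probes of 1416016_PM_at read, and so whether it measures Psmb9, was not checked here. Probe set 1448177_PM_at lay under the filter, with mean log2 signals of 3.17, 3.44, 3.35 and 3.20 in KO high-fat, WT high-fat, KO low-fat and WT low-fat livers.

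Psmb8 encodes beta5i (LMP7), the immunoproteasome counterpart of beta5. Its probe set 1422962_PM_a_at had log2 signals of 7.52, 7.55 and 7.26 in KO high-fat livers and 7.13, 7.11 and 7.31 in WT high-fat livers. It had 6.78, 6.53 and 7.43 in KO low-fat livers and 7.36, 7.13 and 7.29 in WT low-fat livers. KO low-fat replicates 1 and 2 were the lowest of all livers, while replicate 3 of that group reached the high-fat KO range, so the groups overlapped. The diet difference in KO livers was 0.53 (SE 0.183; limma, adjusted p = 0.168). Probe set 1444619_PM_x_at of Psmb8 lay under the filter, at means of 3.43, 3.57, 3.48 and 3.44 in KO high-fat, WT high-fat, KO low-fat and WT low-fat livers.

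Psmb10 encodes beta2i (MECL-1), the immunoproteasome counterpart of beta2. It had log2 signals of 8.74, 8.42 and 8.39 in KO high-fat livers and 8.33, 8.27 and 8.39 in WT high-fat livers. It had 8.36, 8.12 and 8.22 in KO low-fat livers and 8.43, 8.44 and 8.48 in WT low-fat livers. The diets did not overlap in either genotype, with high-fat above low-fat in KO livers (log2 0.28, SE 0.101; limma, adjusted p = 0.181) and below it in WT livers (log2 -0.12, SE 0.101; limma, adjusted p = 0.822). KO low-fat livers lay below all WT low-fat livers, by 0.22 on average (log2 -0.22, SE 0.101; limma, adjusted p = 0.618).

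Nlrc5 encodes the transactivator of class I genes. It had log2 signals of 6.09, 6.09 and 5.91 in KO high-fat livers and 5.87, 5.68 and 5.67 in WT high-fat livers. It had 5.14, 5.06 and 6.26 in KO low-fat livers and 5.59, 5.54 and 5.94 in WT low-fat livers. KO low-fat replicates 1 and 2 were the lowest livers and replicate 3 of the same group the highest of all 12, which gave this group an SD of 0.672 against 0.104 to 0.219 in the others. The diet difference in KO livers was 0.54 (SE 0.250; limma, adjusted p = 0.317).

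KO low-fat replicate 3 bore on several of these values. Without it, 4 probe sets passed for the diet effect in KO livers: Psmb8 with a log2 difference of 0.78 (limma, adjusted p = 0.0117), Psmb9 1416016_PM_at with 0.94 (0.00408), Psmb9 1450696_PM_at with 1.12 (0.00528) and Nlrc5 with 0.93 (0.00757). With it, 1 passed. Its mean macrophage marker level, 6.14, was within the range of the WT livers.

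Tapbp encodes tapasin, which bridges the peptide transporter and the empty class I molecule. Its bright probe set 1421812_PM_at had 9.60, 9.33 and 9.21 in KO high-fat livers, 9.17, 9.35 and 9.26 in WT high-fat livers, 9.32, 9.11 and 9.46 in KO low-fat livers and 9.28, 9.37 and 9.39 in WT low-fat livers. All 4 groups overlapped. The second probe set, 1450378_PM_at, had 7.11, 6.97 and 7.04 in KO high-fat livers, 6.89, 6.36 and 6.42 in WT high-fat livers, 6.88, 6.60 and 6.85 in KO low-fat livers and 6.77, 7.29 and 6.61 in WT low-fat livers. Here KO exceeded WT livers on the high-fat diet without overlap, by 0.48 on the log2 scale (SE 0.178; limma, adjusted p = 0.997), while the first probe set differed by 0.12 (SE 0.110; limma, adjusted p = 0.997). The 2 probe sets of Tapbp thus gave different sizes of the same difference.

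Erap1 encodes the aminopeptidase that trims peptides in the endoplasmic reticulum to a length that class I molecules bind. Probe set 1416942_PM_at averaged 8.05, 8.02, 8.13 and 8.04 in KO high-fat, WT high-fat, KO low-fat and WT low-fat livers. Probe set 1439068_PM_at averaged 6.55, 6.47, 6.42 and 6.61 in the same groups. No 2 groups of either probe set were apart in the 4 comparisons of 2 groups. For KO minus WT on the high-fat diet the 95% interval ran from -0.17 to 0.24 for the first and from -0.21 to 0.36 for the second.

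**Figure D1:**
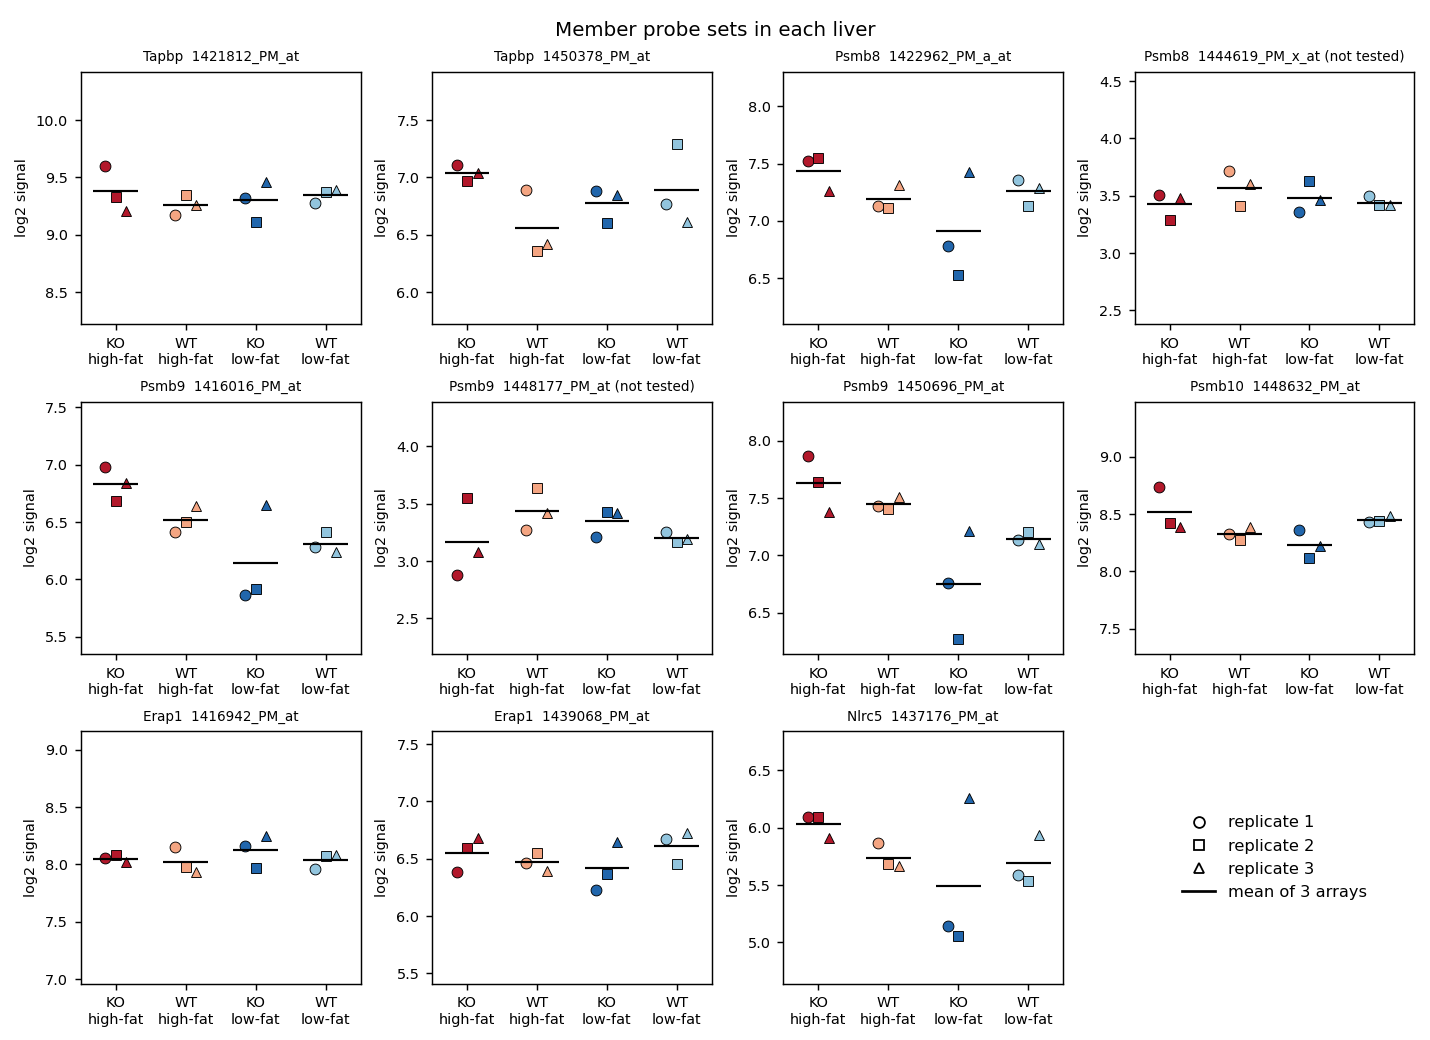
Log2 signal (vertical axes, each spanning the same range of log2 units) of the 11 probe sets in each liver, by genotype and diet. Symbols mark replicates 1 to 3 and lines the means of 3 arrays. For Psmb8, Psmb9 1416016_PM_at, Psmb9 1450696_PM_at and Nlrc5, KO low-fat replicate 3 lies above the other KO low-fat livers.

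Between genotypes on the high-fat diet, the members lay slightly higher in KO livers, and none passed the test. All 9 tested probe sets had a log2 difference above 0, against 53.4% of all probe sets tested. The 9 stand for 6 genes, and many of these vary together. Over the 12 arrays, Pearson's r between 2 member genes ran from -0.0605 (Erap1 and Psmb10) to 0.885 (Nlrc5 and Psmb8). Counts out of 9, here and below, are thus not counts of independent values. Their median difference was 0.18, against 0.0101 over all, and the range was 0.03 for Erap1 1416942_PM_at to 0.48 for Tapbp 1450378_PM_at. The threshold was passed by 0 of the 9, with limma adjusted p-values of 0.997 to 0.999, and by 0.00577% of all probe sets tested, which was Pml alone. At an unadjusted p under 0.05, 1 of the 9 was called (Tapbp 1450378_PM_at), against 4.35% of all. KO livers lay wholly above WT livers for 3 of the 9, namely Tapbp 1450378_PM_at, Psmb9 1416016_PM_at and Nlrc5, against 6.47% of all. Without both arrays low in macrophage markers the median of the 9 was 0.31, and 0 of them passed.

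On the low-fat diet the differences leaned the other way. The median over the 9 probe sets was -0.20, against -0.00161 over all, and 1 of 9, Erap1 1416942_PM_at, was above 0, against 49.6% of all. The largest differences were those of Psmb9 1450696_PM_at (log2 -0.39, SE 0.190; limma, adjusted p = 0.635) and Psmb8 (log2 -0.34, SE 0.183; limma, adjusted p = 0.669). The threshold was passed by 0 of the 9 and by 0.00577% of all, and at an unadjusted p under 0.05 by 0 of the 9 and 8.13% of all. Groups were apart for 1 of the 9, Psmb10, which was lower in KO livers, against 5.15% of all lower. Without KO low-fat replicate 2, the differences of Tapbp 1421812_PM_at and Nlrc5 turned to 0.04 and 0.01, and without both arrays low in macrophage markers the median of the 9 was -0.05.

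With diet in KO livers, 8 of the 9 probe sets had a difference above 0, against 48.7% of all, with a median of 0.28, against -0.00653 over all. The threshold was passed by 1 of 9, against 1.83% of all (1.11% in the higher direction). At an unadjusted p under 0.05, 5 of 9 were called, against 15.7% of all. High-fat livers lay wholly above low-fat livers for 4 of 9, Tapbp 1450378_PM_at, both tested Psmb9 probe sets and Psmb10, against 9.72% of all. Without both arrays low in macrophage markers the median of the 9 was 0.29, 0 of them passed, and 69 probe sets passed in place of 318.

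With diet in WT livers, 3 of the 9 were above 0, against 46.4% of all, and the median was -0.07, against -0.0133 over all. The threshold was passed by 0 of the 9 and 0.138% of all, and at an unadjusted p under 0.05 by 0 of the 9 and 8.24% of all. The 2 arrays low in macrophage markers are KO livers and take no part in this median. The diets were apart with high-fat above for both tested Psmb9 probe sets (6.73% of all) and with high-fat below for Psmb10 (8.35% of all).

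The diet effect in KO minus that in WT livers had a median of 0.48 over the 9, against 0.0108 over all, and 8 of 9 were above 0, against 52.3% of all. By limma 0 of the 9 and 0% of all passed, with adjusted p-values of 0.870 to 0.973 for the 9. At an unadjusted p under 0.05, 3 of the 9 (Tapbp 1450378_PM_at, Psmb8 and Psmb10) and 5.51% of all were called. Without both arrays low in macrophage markers the median was 0.36. The diet effects of Psmb9 1450696_PM_at in the 2 genotypes thus were not shown to differ (log2 0.58, SE 0.269, 95% interval 0.00 to 1.16; limma, adjusted p = 0.875). These comparisons share groups, so their directions are not independent of each other. The KO low-fat group enters 3 of them.

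**Figure D2:**
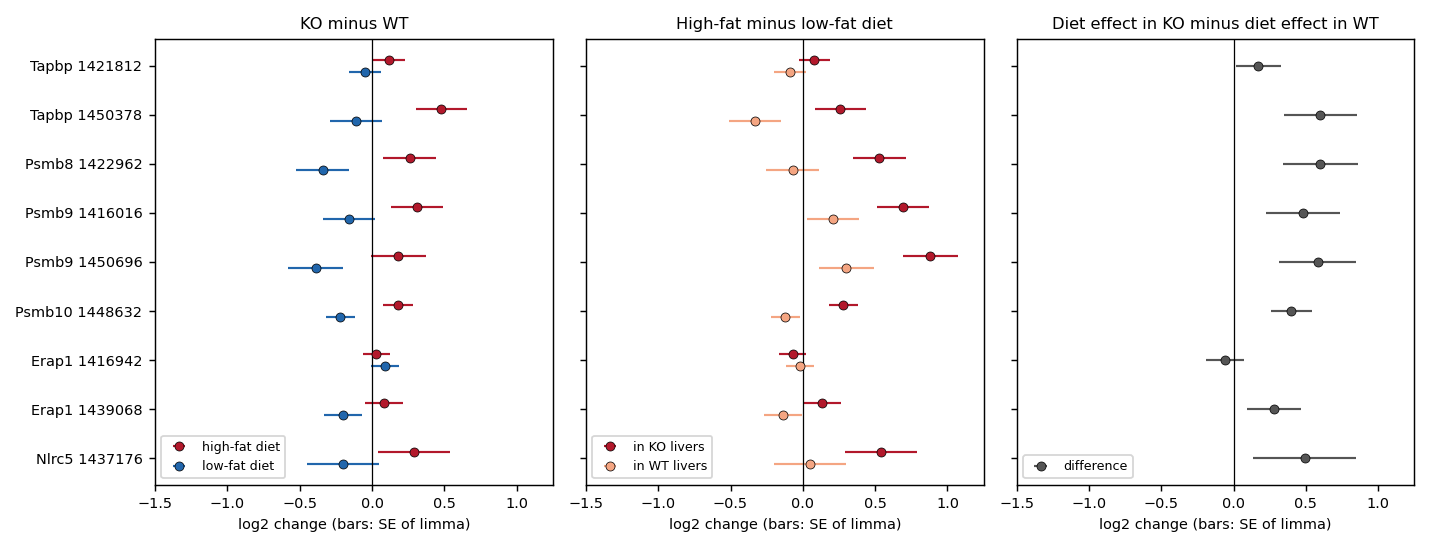
Log2 change of the 9 tested probe sets (points, with bars of 1 SE from limma) for KO minus WT (left), the effect of diet within KO and WT livers (middle), and the diet effect in KO minus that in WT livers (right). Only Psmb9 1450696 in KO livers, at 0.88 in the middle panel, passed the threshold.

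The rest of the proteasome and of the class I pathway was read from lists of genes, with the brightest probe set standing for each of 11235 genes tested. At most 1.83% of all probe sets tested passed in any comparison, so a count of 0 in a short list lies near that share. None of the constitutive catalytic subunits, which the immunoproteasome subunits replace, passed in any comparison. For diet in KO livers the log2 difference was -0.01 for Psmb5, -0.05 for Psmb6 and 0.03 for Psmb7 (limma, adjusted p = 0.973, 0.797 and 0.941). For KO minus WT on the high-fat diet their differences were -0.01, 0.05 and 0.03. Their standard errors there were 0.0718, 0.0680 and 0.118. On the low-fat diet all 3 were above 0 for KO minus WT, with a median of 0.18, against 52.3% and 0.00802 over all genes. For diet in WT livers all 3 were above 0 as well, with a median of 0.16.

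WT low-fat replicate 3 bore on both of these values. The mean log2 level of the 3 subunits was 9.96 in this liver, against 10.24 to 10.38 in the other 11. The other 20S core subunits averaged 9.74 in it, against 9.95 to 10.12, and the 19S subunits 8.95, against 9.20 to 9.30. Without it, the median of the 3 catalytic subunits was 0.07 for KO minus WT on the low-fat diet and 0.03 for diet in WT livers. The immunoproteasome subunits did not share this low level, at 7.62 in the same liver.

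In the lists of other 20S core subunits (11 genes), activators and assembly factors (9), 19S regulatory subunits (17) and cytosolic and endosomal peptidases (6), 0 genes passed in any of the 5 comparisons. Their medians for the diet effect in KO livers were 0.06, 0.05, 0.03 and -0.04, against -0.00734 over all genes. Without both arrays low in macrophage markers they were 0.06, 0.00, 0.00 and -0.11. On the low-fat diet, 10 of the 11 core subunits were above 0 for KO minus WT with a median of 0.11, and 17 of 17 of the 19S subunits with a median of 0.08, against 52.3% and 0.00802 over all genes. Without WT low-fat replicate 3 these became 6 of 11 with a median of 0.02 and 8 of 17 with a median of -0.01. Among the genes with the largest KO minus WT difference on the high-fat diet, Psma4 and Psmb2 of the core were both at 0.18 (SE 0.0869 and 0.0891; limma, adjusted p = 0.997 for each). Psmg2, a chaperone of proteasome assembly, was at 0.14 (SE 0.132), and Psme1, a subunit of the interferon-induced activator PA28, at 0.13 (SE 0.0876).

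Of the class I heavy chains and class I-like genes, 13 were tested and 0 passed in any comparison. For KO minus WT on the high-fat diet 11 of the 13 were above 0, with a median of 0.12, against 51.9% and 0.0053 over all genes. KO livers lay wholly above WT livers for 6 of the 13 and wholly below for 1, against 6.47% and 5.01% of all probe sets tested. For diet in KO livers the median was 0.09, and -0.01 without both arrays low in macrophage markers. H2-D1, a classical heavy chain, had log2 signals of 11.13, 10.91 and 10.80 in KO livers, against 10.70, 10.57 and 10.56 in WT livers, on that diet. H2-Bl went the other way, with 8.36, 8.61 and 8.63 in KO livers, against 8.69, 9.25 and 9.37 in WT livers. Their differences were 0.34 (SE 0.173) and -0.57 (SE 0.157), each with a limma adjusted p of 0.997. H2-D1 is among the 6, and H2-Bl is the 1. Class I genes share long stretches of sequence, so which gene a probe set reads is uncertain. Of the 8 folding and loading chaperones 0 passed, and Uggt1, which checks the folding of glycoproteins, lay at -0.23 (SE 0.139; limma, adjusted p = 0.997).

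Upstream of the members, 16 genes of interferon-gamma signalling and class I regulation were tested, and 1 of them rose with diet in KO livers, against 1.11% of all probe sets tested that rose there. Ifngr2, a subunit of the interferon-gamma receptor, had log2 signals of 6.20, 6.45 and 6.44 in KO high-fat livers, against 5.36, 5.63 and 5.81 in KO low-fat livers. The diets were apart, and the difference was 0.76 (SE 0.146; limma, adjusted p = 0.0221). Without KO high-fat replicate 2 or 3 or KO low-fat replicate 1 or 2 the limma adjusted p was 0.105, 0.0826, 0.0911 and 0.0548, in that order. It was 0.146 without both arrays low in macrophage markers and 0.0943 with the 2 groups alone. The median over the 16 was 0.00, against -0.00734 over all genes, and -0.09 without those 2 arrays.

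Of 18 tested interferon-stimulated genes, 3 rose with diet in KO livers and 0 fell, where 1.83% of all probe sets tested passed and 1.11% rose. Ifit3, an antiviral protein, had log2 signals of 7.55, 6.83 and 6.85 in KO high-fat livers, against 5.79, 5.59 and 5.74 in KO low-fat livers. It was 2.59-fold higher on the high-fat diet (SE 0.167 on the log2 scale; limma, adjusted p = 0.0025), with no overlap, and it passed without both arrays low in macrophage markers (limma, adjusted p = 0.0213). The others were the GTPases Igtp (log2 1.07, SE 0.186; limma, adjusted p = 0.0140) and Iigp1 (log2 0.41, SE 0.0866; limma, adjusted p = 0.0356). The Igtp call was lost without KO high-fat replicate 2 (limma, adjusted p = 0.0781) or KO low-fat replicate 1 (0.0613), or with the 2 groups alone (0.0943), and was kept without both arrays low in macrophage markers (0.0477). The Iigp1 call was lost without KO high-fat replicate 2 (0.158) or 3 (0.115), WT high-fat replicate 2 (0.0540), KO low-fat replicate 1 (0.128) or both arrays low in macrophage markers (0.137). It was also lost under the replicate block (0.0525), without a variance trend (0.0863) and with the 2 groups alone (0.0926).

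The median of the 18 was 0.66 for the diet effect in KO livers and 0.01 in WT livers, against -0.00734 and 0.000633 over all genes. Between KO and WT livers it was 0.63 on the high-fat diet and -0.05 on the low-fat diet, against 0.0053 and 0.00802 over all genes. Without both arrays low in macrophage markers these medians were 0.64 for diet in KO livers and 0.80 and 0.01 for KO minus WT on the high-fat and low-fat diet. With all 12 arrays, 0 of the 18 passed by limma in either comparison of genotypes. Ifit3 differed there by 0.94 on the high-fat diet (SE 0.167; limma, adjusted p = 0.376). The diet effect in KO minus that in WT livers had a median of 0.62 over the 18, against -0.00292 over all genes. By limma 0 of the 18 passed, so the diet effects of these genes were not shown to differ between genotypes. The mean level of all 22 listed genes with a probe set was 5.87 to 6.42 in KO high-fat livers, 5.39 to 5.64 in WT high-fat livers, 5.25 to 5.63 in KO low-fat livers and 5.49 to 5.56 in WT low-fat livers.

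**Figure D3:**
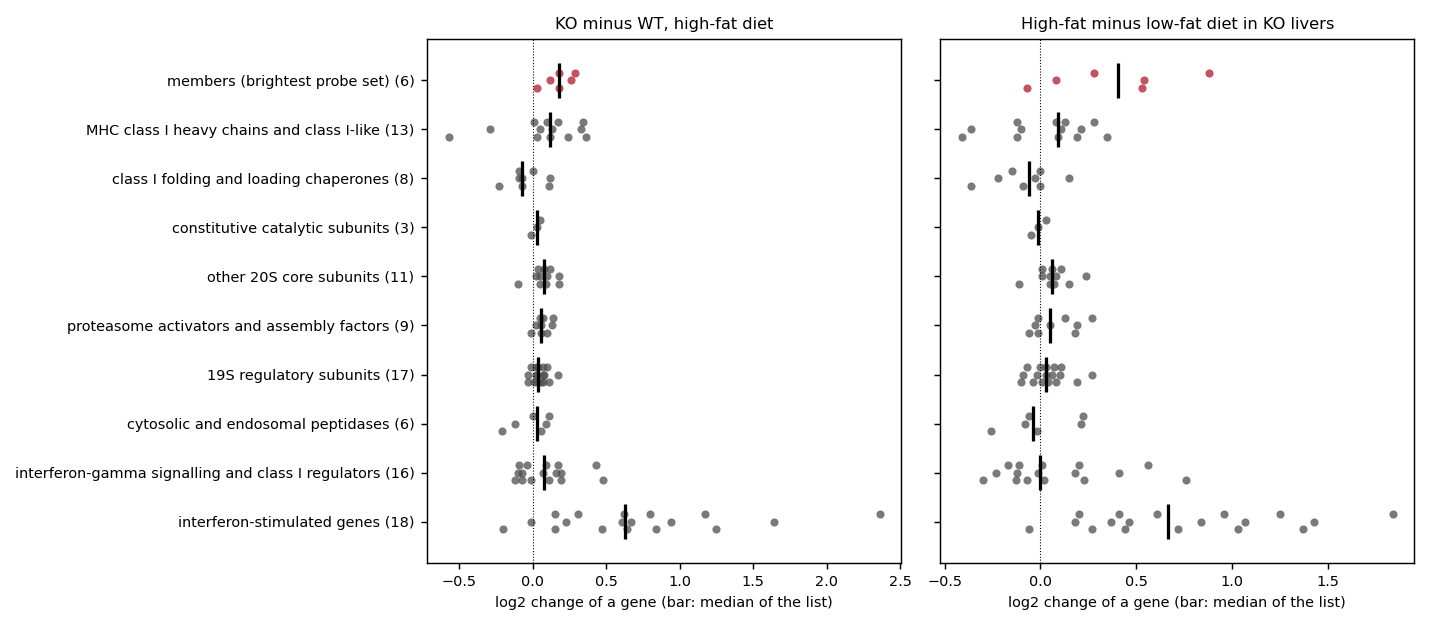
Log2 change of each tested gene (points) and the median of each list (bars) for KO minus WT on the high-fat diet (left) and high-fat minus low-fat diet in KO livers (right). The members are shown by the brightest probe set of each of 6 genes, and the numbers in brackets count genes. The 18 interferon-stimulated genes have medians of 0.63 and 0.66, and the constitutive catalytic subunits lie near 0.

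Marker genes of other liver cells were read beside these values. The 3 immunoproteasome subunits had mean log2 levels of 8.04, 7.87 and 7.68 in KO high-fat livers and 7.63, 7.59 and 7.74 in WT high-fat livers. In KO low-fat livers they had 7.30, 6.98 and 7.62 and in WT low-fat livers 7.64, 7.59 and 7.62. KO low-fat replicate 2 was the lowest liver both in these subunits and in the macrophage markers. KO high-fat replicate 3 was low in macrophage markers, at 5.38, while its subunit mean of 7.68 was within the range of the WT livers. For the diet effect in KO livers, 8 of 11 tested macrophage markers were above 0 with a median of 0.40, and in WT livers 11 of 11 with a median of 0.43, against 48.5% and 50.1% of all genes above 0. Without both arrays low in these markers the median for diet in KO livers was 0.22. For KO minus WT the median was -0.25 on the high-fat and -0.19 on the low-fat diet. Without both arrays it was 0.33 and 0.36, but these arrays were picked by the same markers. No macrophage marker passed in any comparison. Their part in the Psmb9 result was not tested. In bulk liver, fewer cells of a type and less RNA per cell cannot be told apart.

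The 12 liver endothelial markers were low in KO high-fat replicates 2 and 3 and in KO low-fat replicate 2. Their mean log2 level was 6.58, 5.77 and 5.79 in KO high-fat livers, 6.39 to 6.65 in WT high-fat livers, 5.91 to 6.88 in KO low-fat livers and 6.44 to 6.75 in WT low-fat livers. The median difference was -0.52 for KO minus WT on the high-fat diet and -0.49 for diet in KO livers, and no marker passed. Without both arrays low in macrophage markers these medians were -0.39 and -0.60. Gpr182, a receptor of sinusoidal endothelium, differed by -0.83 (SE 0.298) and Dnase1l3, a secreted nuclease, by -0.75 (SE 0.269) for KO minus WT on the high-fat diet, each with a limma adjusted p of 0.997. For diet in KO livers, 4 of the 8 hepatocyte markers lay above 0 and 4 below, with a median of -0.01. Only 1 of the 8 passed there, against 1.83% of all probe sets tested. It was Hnf4a, a transcription factor of hepatocyte identity, which fell by 0.39 on the log2 scale (SE 0.0781; limma, adjusted p = 0.0279). That call was lost without KO high-fat replicate 1, 2 or 3 (limma, adjusted p = 0.0616, 0.108 and 0.0905) or KO low-fat replicate 1 or 2 (0.0780 and 0.0884), without both arrays low in macrophage markers (0.199), without a variance trend (0.0788) and with the 2 groups alone (0.0687).

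**Figure D4:**
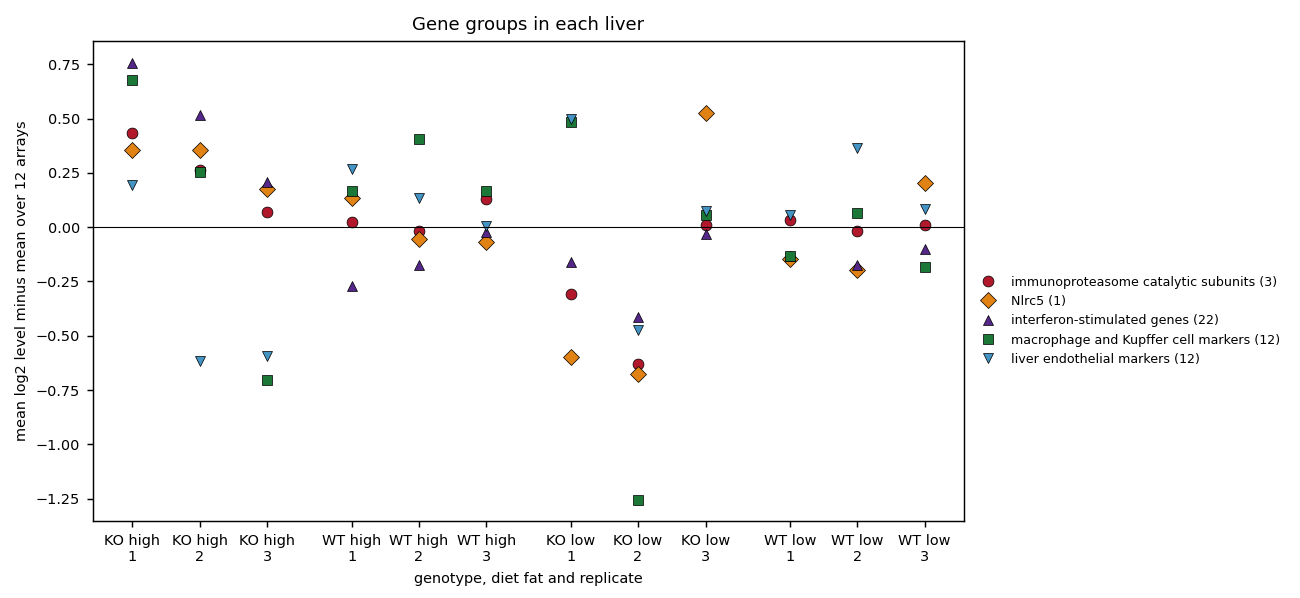
Mean log2 level of each gene group in each liver minus its mean over the 12 arrays (vertical axis), by genotype, diet fat and replicate (horizontal axis). KO low-fat replicate 2 is the lowest liver for the immunoproteasome subunits, Nlrc5, interferon-stimulated genes and macrophage markers, and the Nlrc5 point of KO low-fat replicate 3 is the highest of its gene.

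The genes most like the members across livers were found by Pearson's r over the 12 arrays, with the mean of the 6 member genes after each was centred and scaled to its SD. That mean was 1.34, 0.60 and -0.04 SD units in KO high-fat livers, 0.01, -0.23 and -0.15 in WT high-fat livers, -0.55, -1.79 and 0.69 in KO low-fat livers and -0.19, 0.00 and 0.31 in WT low-fat livers. The spread among KO livers was thus wider than among WT livers on both diets. The closest gene was Mpeg1, a pore-forming protein of macrophages (r = 0.962). It was followed by Il18bp, a secreted antagonist of interleukin 18 (0.941), Samd9l (0.909), the guanylate-binding protein Gbp10 (0.904) and the class I-like gene H2-T23 (0.902). Scand1 (0.901), Cideb (0.890), Klhl9 (0.889), Btc (0.887) and Phka2 (0.884) completed the first 10.

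Mpeg1 followed the members in the outlying KO livers. It had log2 signals of 9.23, 8.66 and 8.20 in KO high-fat livers and 8.18, 8.31 and 8.32 in WT high-fat livers, with 8.15, 6.93 and 8.72 in KO low-fat livers and 8.12, 8.05 and 8.33 in WT low-fat livers. Its lowest liver was KO low-fat replicate 2 and its highest KO high-fat replicate 1, the same 2 livers that were lowest and highest in the mean of the members. After the group means were taken off, its r with the members was 0.971. The likeness was a description over 12 arrays that share their groups, and it carries no test.

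Probe sets of 1 gene followed each other to different degrees over the 12 arrays. Pearson's r was 0.88 between the 2 tested probe sets of Psmb9, 0.294 between those of Tapbp and 0.00621 between those of Erap1. The 2 dim probe sets of Psmb8 and Psmb9 ran at -0.275 and at -0.209 and -0.176 against the brighter ones of their gene. These correlations describe arrays that share their groups.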

How the data were processed

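Affymetrix arrays of 12 liver RNA extracts (Trizol total RNA, biotin label, per the labels' protocols) were read. The deposited values are log2 signals from RMA per the submitters' processing notes (version not given). RMA usually brings arrays to a common distribution, so a shift shared by most genes could be missed. Array medians were 3.94 to 4.00. No further scaling was applied.

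Of 45141 probe sets, 104 controls, 551 with several genes and 15588 with none were left out. The 40% of the remaining 28898 with the lowest mean were dropped, which left 17339 with a mean log2 signal of at least 3.82. Group means were fitted with limma 3.58.1 in R 4.3.3 over all 12 arrays (8 residual degrees of freedom, variance trend), with Benjamini-Hochberg adjustment at 0.05 within each of 5 comparisons. Values after SE are limma's, and intervals are 95%. The limma fit was also run on simulated arrays, with independent normal values and known changes put into the KO high-fat group. Outlying arrays and genes that vary together were not simulated, and the other steps were not tested in this way.

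The members and lists were chosen with earlier results of these data known. Named genes are Pml, all member probe sets, up to 4 passing genes of each list (otherwise up to 3 by size of KO minus WT on the high-fat diet), and the 10 genes most like the members. Markers of T, B, natural killer and dendritic cells, neutrophils and stellate cells had 0 genes past the threshold. Promoter sequences are RefSeq's (GRCm38.p6). Alternatives were quantile normalization, median centring, other filters, no trend, the 2 groups alone, a replicate block, an adjusted p of 0.10, array weights, and refits without single arrays. The fit without the 2 arrays lowest in macrophage markers, and list medians with arrays left out, were chosen after seeing the data.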

Additional observations from a re-analysis of the deposited data

Results flagged for a closer look

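For Psmb10 1448632_PM_at the diets did not overlap in either genotype, with opposite order, though neither diet difference passed. All KO high-fat livers (8.74, 8.42 and 8.39) lay above all KO low-fat livers (8.36, 8.12 and 8.22), and all WT high-fat livers (8.33, 8.27 and 8.39) lay below all WT low-fat livers (8.43, 8.44 and 8.48). The diet difference was 0.28 in KO livers (limma, adjusted p = 0.181) and -0.12 in WT livers (limma, adjusted p = 0.822). Of all probe sets tested, 9.72% had high-fat wholly above low-fat livers among KO livers, and 8.35% had it wholly below among WT livers. The difference between the diet effects was 0.40 on the log2 scale (SE 0.143, 95% interval 0.09 to 0.71). It had an unadjusted p of 0.0152 and an adjusted p of 0.870 in limma over all probe sets tested, so it failed the correction. The gap between the nearest livers was small in both genotypes.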

How the results depend on the processing

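Of 1056 values of member probe sets under the alternatives, 1022 kept their direction and their side of the threshold, 17 changed sign, 11 lost the threshold and 6 gained it. Many alternatives could not change a difference, such as other filters, no variance trend or leaving out an array of another group. Of the 45 member values as reported, 1 had passed, so most had no call to lose. The count of 1022 thus does not measure how firm the results are. The largest reported value to change sign was that of Nlrc5 for KO minus WT on the low-fat diet, at -0.20, so its direction there is not settled, nor is that of Tapbp 1450378_PM_at, at -0.11. Tapbp 1421812_PM_at and Nlrc5 in KO minus WT on the low-fat diet were at 0.043 and 0.013 without the 2 arrays lowest in macrophage markers, and Erap1 1416942_PM_at with diet in WT livers was at 0.0067 under median centring. With 1 array left out, KO minus WT ran from -0.014 to 0.096 for Erap1 1416942_PM_at on the high-fat diet, and on the low-fat diet from -0.14 to 0.043 for Tapbp 1421812_PM_at, -0.25 to 0.086 for Tapbp 1450378_PM_at and -0.59 to 0.013 for Nlrc5. With diet it ran from -0.026 to 0.17 for Tapbp 1421812_PM_at in KO livers, and in WT livers from -0.08003 to 0.030 for Erap1 1416942_PM_at and -0.026 to 0.18 for Nlrc5. The difference between the diet effects ran from -0.13 to 0.0071 for Erap1 1416942_PM_at. Of other genes, KO minus WT on the high-fat diet ran from -0.028 to 0.068 for Psmb7 and from -0.024 to 0.00095 for Psmb5. The median of the members kept its sign in every alternative run, from 0.15 to 0.31 for KO minus WT on the high-fat diet, -0.31 to -0.05 on the low-fat diet, 0.23 to 0.41 for diet in KO livers, -0.09 to -0.02 in WT livers and 0.34 to 0.64 for the difference between the diet effects.

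For diet in KO livers, 1 member probe set passed as reported, 2 under quantile normalization, array weights or an adjusted p of 0.10, and 0 with the 2 groups alone, the replicate block or without the 2 arrays lowest in macrophage markers. It was 0 to 4 when 1 array was left out. All probe sets past the threshold there numbered 318 as reported, 80 with the 2 groups alone, 485 with array weights, 699 at an adjusted p of 0.10, 69 without those 2 arrays and 75 to 541 when 1 array was left out. For diet in WT livers the count was 24 as reported, 117 with array weights, 50 at an adjusted p of 0.10 and 9 to 38 with 1 array left out. For KO minus WT on the high-fat diet it was 1 as reported, 0 under the 60% filter, 3 with the 2 groups alone, 4 without those 2 arrays and 0 to 3 with 1 array left out. On the low-fat diet it was 1 as reported and 0 under the 60% filter, over all probe sets that are no controls, without a variance trend, with the 2 groups alone, with the replicate block, with array weights and without those 2 arrays. It was 2 at an adjusted p of 0.10 and 0 to 1 with 1 array left out. The difference between the diet effects gave 0 as reported and 0 to 1 with 1 array left out. Pml, the 1 probe set that passed between genotypes on each diet as reported, was removed by the 60% filter and so not tested there. A threshold of 0.10 can only add to a count. Other causes were not tested, except that fits with fewer arrays rest on fewer samples.

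Replicate numbers are shared between groups in the labels. Deviations from the group means of same-numbered arrays correlated at -0.116 to 0.338 (18 pairs, median 0.0543), against -0.413 to 0.194 for other pairs. In 0 of the 6 pairs of groups were all 3 same-number correlations over 0.1. The labels do not say that equal numbers belong together, so the numbers were not taken as a pairing. They are not shown to be without meaning: between KO high-fat and KO low-fat arrays the same-number correlations ran from -0.00718 to 0.338, and in 1 of the 6 pairs of groups, KO high-fat and WT high-fat, every array correlated best with its own number (0.0846 to 0.102). With the replicate block, Psmb9 1450696_PM_at had a log2 diet effect in KO livers of 0.88 with a limma adjusted p of 0.0510, and 278 probe sets passed in place of 318. The 3 arrays per group limit what can be called, and 2 member probe sets were too dim to test.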
